A study of Arabidopsis thaliana with 8 samples.

Results

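A set of 28 genes was silent in wild-type Arabidopsis thaliana seedlings and on in both of the double mutants studied, out of 25198 genes listed (0.111%) and of 4282 genes under 0.2 FPKM in both Col libraries (0.654%). The genes were chosen by their FPKM values, counts scaled to transcript length and to the library total. Both wild-type (Col) libraries had to lie under 0.2 FPKM, and all 4 libraries of the genotypes labelled chr11/17 and rlt1/2 had to reach at least 1 FPKM. For these 28 genes, differences of these mutants from Col are therefore a description, given without a test. The study profiled messenger RNA in 8 libraries, 2 each from chr11-/-chr17-/-, rlt1-/-rlt2-/- and fha2-/- seedlings and from the wild type, every one in the Col background. Each library came from 0.05 g of whole seedlings of day 11, raised on plates of Murashige and Skoog medium at 22 °C with 16 h of light and 8 h of dark. The sources used here name no alleles and do not say if replicates were grown apart. The p-values below hence reflect only how far the libraries of a genotype differ, a spread that can be technical. In whole seedlings, more cells of a type and more RNA per cell cannot be told apart.

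ISWI complexes slide nucleosomes along DNA. In plants CHR11 and CHR17 are their ATPases, RLT1 and RLT2 are DDT-domain subunits that join these ATPases, and FHA2 carries a forkhead-associated domain. Among the chosen genes the clearest common function was seed filling. Maturing embryos store protein as 12S globulins (cruciferins) and 2S albumins, store oil in bodies coated by oleosins, and make late embryogenesis abundant (LEA) proteins before they dry. After germination these genes are normally shut off, which makes their transcripts unusual in green seedlings.

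Library totals ran over a narrow range, with 20.962 M expected counts in the smallest and 22.012 M in the largest (M for mega). RLT2 and FHA2 transcripts were low in their own mutants, at 2.19 and 2.21 CPM (TMM-scaled counts relative to library size) in rlt1/2 against 28.2 and 34.1 CPM in Col for RLT2, and at 3.05 and 1.01 CPM in fha2 against 23.5 and 24.4 CPM in Col for FHA2. RLT1 was at 15.9 and 16.8 CPM in rlt1/2, against 25.4 and 35.7 CPM in Col. CHR11 was at 73.4 and 69.7 CPM in the libraries labelled chr11/17 and 47.2 and 46.3 CPM in Col, and CHR17 at 22.6 and 22.9 CPM against 17.2 and 22.5 CPM. Neither ATPase transcript was lower in its own mutant, so every value of this genotype rests on its label. Of the marker genes for leaf, root, pollen, tapetum, and ovule and carpel, the 3 leaf markers summed to 15782 and 15160 FPKM in the libraries labelled chr11/17, 40921 and 39351 FPKM in rlt1/2, 41673 and 39607 FPKM in fha2 and 59218 and 55508 FPKM in Col. The 3 root markers summed to 25.5 and 37.5 FPKM in the libraries labelled chr11/17 and to between 28.1 and 56.0 FPKM in the other libraries. The 3 pollen markers stayed between 0.89 and 1.71 FPKM in sum in every library. The 3 tapetum markers listed summed to at most 0.81 FPKM, with DYT1 at 0 in every library. The 3 ovule and carpel markers listed summed to 5.40 and 5.0 FPKM in the libraries labelled chr11/17, mostly STK, against at most 0.81 FPKM in any other library. The part of these differences in the results below was not tested.

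Of the 28 genes 12 encode seed proteins, and CRU3 and SESA1 among them had the highest mean levels of the set over the 4 double mutant libraries. This grouping was made from the annotated products after the values were seen: 7 of the genes stand in a list of 24 seed storage and oil body genes, and 5 were added from their products. The cruciferin gene CRU3 (AT4G28520) had 83.5 and 34.7 FPKM in the libraries labelled chr11/17, 22.9 and 20.1 FPKM in rlt1/2, 0 and 0.03 FPKM in fha2 and 0 in both Col libraries. The 2S albumin gene SESA1 (AT4G27140) had 88.1 and 41.3 FPKM in the libraries labelled chr11/17, 9.43 and 7.23 FPKM in rlt1/2, 0.33 and 0 FPKM in fha2 and 0.07 and 0 FPKM in Col. For both storage proteins the libraries labelled chr11/17 were the highest, those of rlt1/2 lay between, and fha2 stood with Col at the bottom.

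The 2S albumin genes SESA1, SESA2 (AT4G27150) and SESA3 (AT4G27160) lie side by side on chromosome 4, and they were the only neighbours among the 28 genes, with no listed gene between them. SESA2 was at 34.7 and 9.17 FPKM in the libraries labelled chr11/17, 7.14 and 8.62 FPKM in rlt1/2, 0.19 and 0.44 FPKM in fha2 and 0.19 and 0.13 FPKM in Col. SESA3 was at 16.7 and 4.29 FPKM in the libraries labelled chr11/17, 3.0 and 3.54 FPKM in rlt1/2, 0 and 0.12 FPKM in fha2 and 0 in both Col libraries. Both carry counts that are not whole, so reads were shared between copies and their split is uncertain. The next gene in the row, the albumin gene SESA4 (AT4G27170), was not among the 28, with 0.55 and 0.76 FPKM in the libraries labelled chr11/17, 0.55 and 0.48 FPKM in rlt1/2, 0.27 and 0.14 FPKM in fha2 and 0.21 and 0 FPKM in Col. The genes that flank the albumin row, AT4G27130 and the kinesin gene ATK2 (AT4G27180), were on in every library, AT4G27130 between 48.1 and 82.0 FPKM and ATK2 between 14.2 and 20.5 FPKM.

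Genes of oil bodies and storage vacuoles were also on in both double mutants, and for OLEO1 the libraries of these genotypes overlapped. OLEO1 (AT4G25140) had 15.4 and 7.40 FPKM in the libraries labelled chr11/17, 8.71 and 5.89 FPKM in rlt1/2, 0.15 and 0 FPKM in fha2 and 0 and 0.05 FPKM in Col. OLEO2 (AT5G40420) had 11.1 and 6.35 FPKM in the libraries labelled chr11/17, 4.29 and 2.86 FPKM in rlt1/2, 0.25 and 0.05 FPKM in fha2 and 0 and 0.16 FPKM in Col. Another oleosin family gene, AT2G25890, had 7.53 and 3.78 FPKM in the libraries labelled chr11/17 and 1.51 and 1.18 FPKM in rlt1/2, with 0.16 and 0 FPKM in fha2 and 0 and 0.13 FPKM in Col. TIP3;1 (AT1G73190), a water channel of the storage vacuole membrane in seeds, was at 16.1 and 7.45 FPKM in the libraries labelled chr11/17, 5.47 and 3.0 FPKM in rlt1/2, 0.04 FPKM in both fha2 libraries and 0 and 0.04 FPKM in Col. All 4 of these genes overlap another listed gene. Apart from the AT5G40410 partner of OLEO2, which stayed under 0.2 FPKM in every library, the partners were on in every library. The source of reads at an overlap is uncertain where both genes are on. TIP3;1 and AT2G25890 had counts that are not whole, so reads were shared, while the counts of OLEO1 and OLEO2 were whole.

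The remaining seed genes encode proteins of desiccation and storage. M17 (AT2G41260), a glycine-rich LEA protein, had 26.0 and 10.7 FPKM in the libraries labelled chr11/17, 11.8 and 5.30 FPKM in rlt1/2, 0.19 and 0.39 FPKM in fha2 and 0.15 FPKM in both Col libraries. The LEA family gene AT4G21020 had 5.5 and 3.45 FPKM in the libraries labelled chr11/17 and 1.69 and 1.22 FPKM in rlt1/2, and the dehydrin gene XERO1 (AT3G50980) had 4.85 and 2.84 FPKM against 1.39 and 1.18 FPKM. AT2G28490, of the cupin superfamily to which the storage globulins belong, had 4.06 and 1.57 FPKM in the libraries labelled chr11/17 and 2.14 and 1.43 FPKM in rlt1/2. These 3 genes stayed at or under 0.13 FPKM in every fha2 and Col library. Summed over the 12 seed proteins, the level was 313 and 133 FPKM in the libraries labelled chr11/17, 79.5 and 61.5 FPKM in rlt1/2, 1.51 and 1.14 FPKM in fha2, and 0.54 and 0.84 FPKM in Col.

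**Figure D1:**
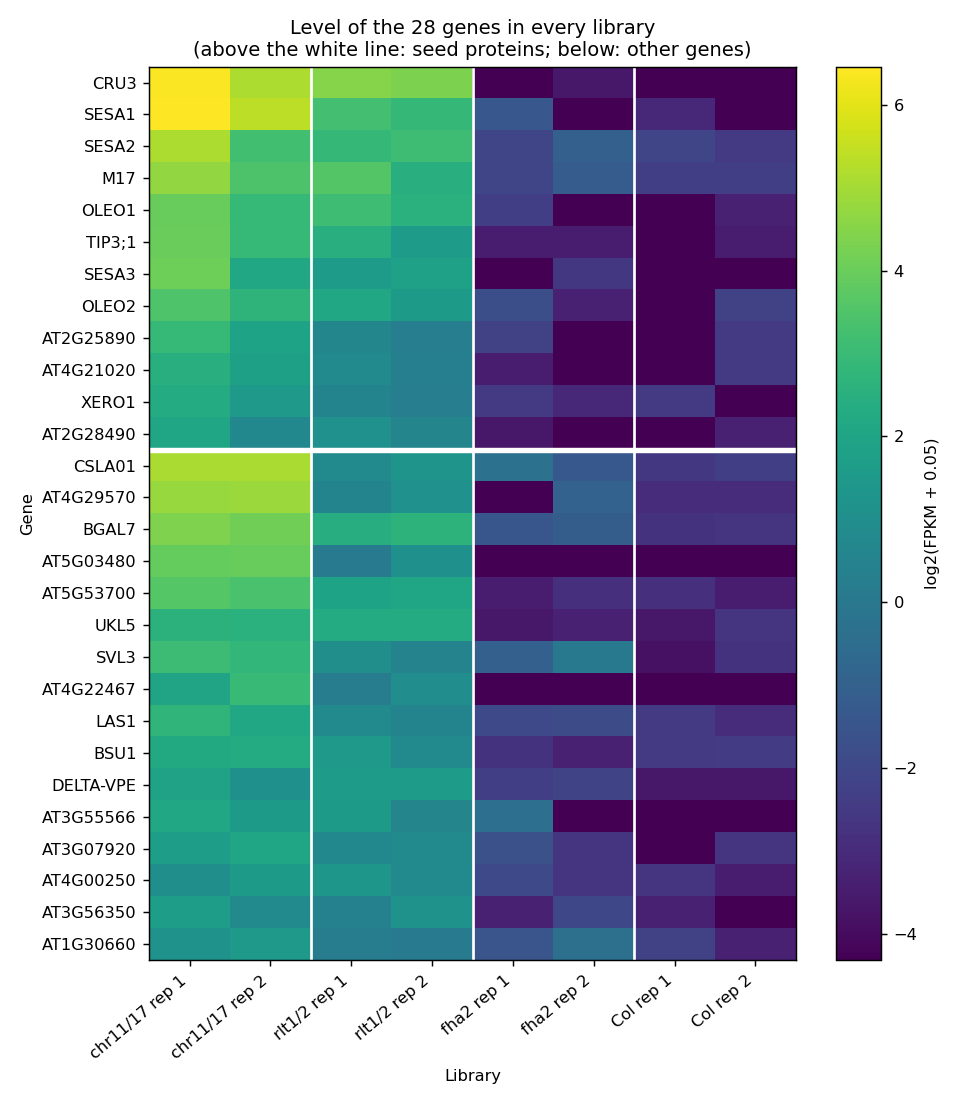
Colour gives the level, log2(FPKM + 0.05), of each of the 28 genes (rows) in each of the 8 libraries (columns). Seed proteins stand above the thick white line, and replicate 1 of chr11/17 is brighter than replicate 2 for all 12 of them. The fha2 columns stay under 1 FPKM, with SVL3 at 0.98 FPKM as their highest value. Rows such as SVL3 and CSLA01 are brighter in fha2 than in Col.

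The other 16 genes had no single function in common. Highest was CSLA01 (AT4G16590), of the family of mannan synthases of the cell wall, with 33.7 and 34.5 FPKM in the libraries labelled chr11/17, 1.76 and 2.35 FPKM in rlt1/2, 0.76 and 0.34 FPKM in fha2 and 0.12 and 0.15 FPKM in Col. AT4G29570, of the cytidine deaminase family, had 27.9 and 28.7 FPKM in the libraries labelled chr11/17, 1.39 and 2.15 FPKM in rlt1/2, 0 and 0.48 FPKM in fha2 and 0.08 FPKM in both Col libraries. BGAL7 (AT5G20710), a beta-galactosidase, had 20.5 and 17.5 FPKM in the libraries labelled chr11/17, 5.14 and 6.27 FPKM in rlt1/2, 0.32 and 0.40 FPKM in fha2 and 0.10 and 0.11 FPKM in Col. In contrast to the seed proteins, the libraries labelled chr11/17 lay close together for each of these genes.

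AT5G03480 and AT5G53700, both encoding proteins with an RNA recognition motif, were in the set. AT5G03480 had 14.9 and 15.4 FPKM in the libraries labelled chr11/17, 1.05 and 2.10 FPKM in rlt1/2 and no count in any fha2 or Col library. It overlaps AT5G03470, which was on throughout at 3.25 to 5.48 FPKM, and it held shared reads, so its level is uncertain. AT5G53700, which overlaps no listed gene, had 12.1 and 10.1 FPKM in the libraries labelled chr11/17, 3.81 and 4.08 FPKM in rlt1/2, 0.04 and 0.09 FPKM in fha2 and 0.09 and 0.04 FPKM in Col. AT4G22467, an uncharacterized gene, likewise had no count in fha2 or Col, with 3.92 and 7.78 FPKM in the libraries labelled chr11/17 and 1.11 and 1.90 FPKM in rlt1/2. Its overlapping partner AT4G22470 was on in every library, at 36.04 and 55.1 FPKM in the libraries labelled chr11/17, 9.31 and 8.98 FPKM in rlt1/2, 3.07 and 10.4 FPKM in fha2 and 1.89 and 1.52 FPKM in Col, and AT4G22467 held shared reads, so its level is uncertain.

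Several enzymes and signalling proteins made up the middle of the range. SVL3 (AT3G20520), a relative of the root hair protein SHV3, had 8.34 and 7.10 FPKM in the libraries labelled chr11/17, 1.94 and 1.36 FPKM in rlt1/2, 0.45 and 0.98 FPKM in fha2 and 0.02 and 0.10 FPKM in Col. LAS1 (AT3G45130), lanosterol synthase, which closes the sterol ring system, had 6.67 and 4.34 FPKM in the libraries labelled chr11/17, 1.74 and 1.42 FPKM in rlt1/2, 0.21 and 0.23 FPKM in fha2 and 0.13 and 0.08 FPKM in Col. BSU1 (AT1G03445), a phosphatase of brassinosteroid signalling, had 4.59 and 4.85 FPKM in the libraries labelled chr11/17, 2.81 and 1.76 FPKM in rlt1/2, 0.10 and 0.05 FPKM in fha2 and 0.13 and 0.14 FPKM in Col. For BSU1 the fha2 libraries were below those of Col, while for SVL3 and LAS1 both were above.

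UKL5 (AT3G27440), a uridine kinase-like gene, differed little between the double mutants, though both libraries labelled chr11/17 lay above both of rlt1/2. It was at 6.03 and 5.94 FPKM in the libraries labelled chr11/17 and 4.85 and 4.86 FPKM in rlt1/2, with 0.03 and 0.05 FPKM in fha2 and 0.03 and 0.11 FPKM in Col. It overlaps the proteasome gene PBB1, which was at 353 and 327 FPKM in the libraries labelled chr11/17, 158 and 150 FPKM in rlt1/2, 112 and 110 FPKM in fha2 and 109 and 110 FPKM in Col. DELTA-VPE (AT3G20210), a vacuolar processing enzyme of the developing seed coat, had 3.65 and 2.11 FPKM in the libraries labelled chr11/17, 2.93 FPKM in both rlt1/2 libraries, 0.15 and 0.18 FPKM in fha2 and 0.03 FPKM in both Col libraries. Despite this seed role, DELTA-VPE was counted with the other 16 genes and not with the seed proteins. The remaining genes were AT3G07920 (a translation initiation factor IF2/IF5 family gene), AT4G00250 (related to the DNA-binding protein storekeeper), AT3G56350 (an iron/manganese superoxide dismutase family gene), AT1G30660 (a nucleic acid binding protein) and AT3G55566 (uncharacterized), all between 1.06 and 4.32 FPKM in the libraries labelled chr11/17 and rlt1/2. AT3G55566 is so short, with an effective length of 64 bases, that its levels rest on 6 and 4 counts in the libraries labelled chr11/17, 4 and 2 counts in rlt1/2, 1 and 0 in fha2 and 0 in both Col libraries. Summed over the 16 genes, the level was 157 and 152 FPKM in the libraries labelled chr11/17, 37.9 and 39.3 FPKM in rlt1/2, 3.61 and 3.95 FPKM in fha2 and 1.05 and 1.04 FPKM in Col.

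None of the 28 genes was on in fha2 by the level used for the double mutants, at least 1 FPKM in both libraries. The highest single value was 0.98 FPKM, of SVL3 in replicate 2, and none reached 0.5 FPKM in both libraries. Of the 4282 genes silent in both Col libraries, 1 (0.0234%) was on in fha2, while 192 (4.48%) were on in the libraries labelled chr11/17 and 39 (0.911%) were on in rlt1/2. These comparisons share the Col libraries. The Col values also chose the 28 genes, so no test of fha2 against Col is given for them.

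Below that level the genes differed among themselves. In fha2 15 of the 28 stayed at or under 0.2 FPKM in both libraries, 8 of them seed proteins and 7 others. SVL3, CSLA01, AT1G30660, BGAL7 and LAS1 were over 0.2 FPKM in both fha2 libraries, and none of these 5 encodes a seed protein. That level was passed by 187 (4.37%) of the genes silent in Col. AT1G30660 had 0.31 and 0.73 FPKM in fha2, from 8 and 16 counts, against 0.16 and 0.05 FPKM in Col, from 4 and 1 counts. SVL3 had 24 and 52 counts in fha2 and 1 and 5 in Col, and BGAL7 had 17 and 20 counts in fha2 and 5 in both Col libraries. The remaining 8 genes were over 0.2 FPKM in a single fha2 library.

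Both fha2 libraries lay above both Col libraries for 7 of the 28 genes, the 5 just named with DELTA-VPE and M17. Among all genes silent in Col this held for 623 (14.5%). Of the seed proteins M17 was the only such gene, at 0.19 and 0.39 FPKM in fha2 against 0.15 FPKM in both Col libraries. In total the 28 genes drew 12767 and 8363 counts in the libraries labelled chr11/17, 3330 and 2937 counts in rlt1/2, 146 and 171 counts in fha2 and 49 and 56 counts in Col. Since low Col values were a condition of the choice, the step from Col to fha2 is not evidence of a difference.

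**Figure D2:**
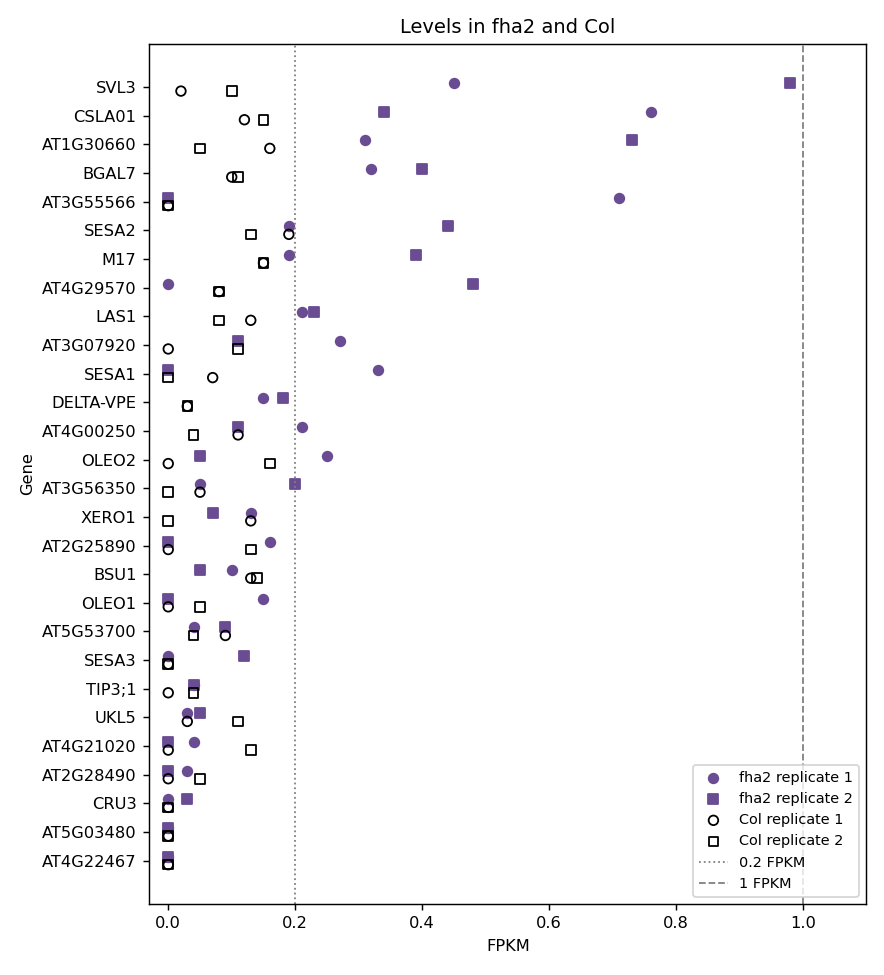
Each row is a gene, with its FPKM in both fha2 libraries (filled) and both Col libraries (open), ordered by the fha2 mean. Dotted and dashed lines mark 0.2 and 1 FPKM, and no filled symbol reaches 1 FPKM.

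The choice used the same lower level for both double mutants and not their difference, but it did use the FPKM of these libraries. The calls between the double mutants are therefore not independent of it, and their count is a description of the chosen genes from which nothing is read against the share over all genes. Most of the 28 genes were higher in the libraries labelled chr11/17 than in rlt1/2, and none was lower. Of 27 genes that passed the filter on low counts, 21 were higher by edgeR's quasi-likelihood fit (p adjusted after Benjamini and Hochberg over all 20866 genes tested, threshold 0.05), where 29.3% of all genes tested were higher and 30.1% lower. None was lower at an unadjusted p under 0.05 either, nor by DESeq2 or limma-voom. The median log2 fold change of the 27 genes was 1.5, against -0.03 over all genes tested. In FPKM both libraries labelled chr11/17 lay above both rlt1/2 libraries for 21 of the 28 genes and below them for 0, against 41.7% and 38.4% of the genes at or over 1 FPKM in these 4 libraries.

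The largest differences, those of CSLA01, AT4G29570 and AT5G03480, were outside the seed proteins. CSLA01 was higher in the libraries labelled chr11/17 than in rlt1/2 by 4.05 ± 0.168 on the log2 scale (SE, edgeR adjusted p = 4.09e-09) and AT4G29570 by 4.0 ± 0.275 (edgeR adjusted p = 1.71e-07). AT5G03480 was higher by 3.27 ± 0.255 (edgeR adjusted p = 1.86e-06), SVL3 by 2.23 ± 0.251 (9.66e-06) and LAS1 by 1.82 ± 0.234 (2.83e-05). AT4G22467, whose level is uncertain, was higher by 1.94 ± 0.355 (edgeR adjusted p = 0.000802). The counts of AT5G03480 were also not whole in the libraries of both double mutants, so its level is uncertain too. For CSLA01 only the count in fha2 replicate 1 was not whole (30.95). BGAL7 was higher by 1.74 ± 0.132 (edgeR adjusted p = 3.87e-07), AT5G53700 by 1.5 ± 0.184 (1.97e-05) and BSU1 by 1.05 ± 0.2 (0.000641). These differences kept their direction without any single library, but those fits reuse the libraries that chose the genes.

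For the seed proteins too, the fits reuse the libraries that chose the genes, so calls and counts of calls are a description. Of all genes tested, 29.3% were higher and 30.1% lower. Among the seed proteins the largest difference was that of SESA1, higher by 2.97 ± 0.332 on the log2 scale (edgeR adjusted p = 9.00e-06). CRU3 was higher by 1.48 ± 0.309 (edgeR adjusted p = 0.00151), TIP3;1 by 1.49 ± 0.345 (0.00246) and AT2G25890 by 2.10 ± 0.448 (0.00147). In all 10 of 12 seed proteins were higher, with a median of 1.5. Without chr11/17 replicate 1 this became 5 of 12, with a median of 0.72, while the other genes remained at 11 of 15 higher with and without that library (medians 1.5 and 1.32). The calls lost without it were those of SESA2 (1.5 ± 0.447 with all libraries and 0.18 without), SESA3 (1.70 ± 0.514 and 0.35), M17 (1.12 ± 0.383 and 0.29), OLEO2 (1.30 ± 0.341 and 0.79) and XERO1 (1.59 ± 0.408 and 1.1). Without chr11/17 replicate 2 all 12 were higher, with a median of 1.97. Without rlt1/2 replicate 1 it was 8 of 12 (SESA2 and SESA3 lost), and without rlt1/2 replicate 2 it was 7 of 12 (SESA3, M17 and OLEO2 lost).

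The difference did not pass the test for 6 genes. OLEO1 was at 0.66 ± 0.330 (edgeR adjusted p = 0.102) and AT2G28490 at 0.67 ± 0.409 (0.176), and both passed without chr11/17 replicate 2 (edgeR adjusted p = 0.00315 and 0.00574). UKL5 was at 0.31 ± 0.154 on the log2 scale (edgeR adjusted p = 0.103), AT3G56350 at 0.48 ± 0.410 (0.329), AT4G00250 at 0.22 ± 0.304 (0.553) and DELTA-VPE at -0.01 ± 0.257 (0.971). AT3G55566 had too few counts to be tested. Of the other called genes, AT3G07920 (1.12 ± 0.335, edgeR adjusted p = 0.0119) and AT1G30660 (1.16 ± 0.335, edgeR adjusted p = 0.00991) lost the call without either rlt1/2 library, at most 0.0723 for the first and 0.0595 for the second, and AT3G07920 also without chr11/17 replicate 2 (0.0667).

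**Figure D3:**
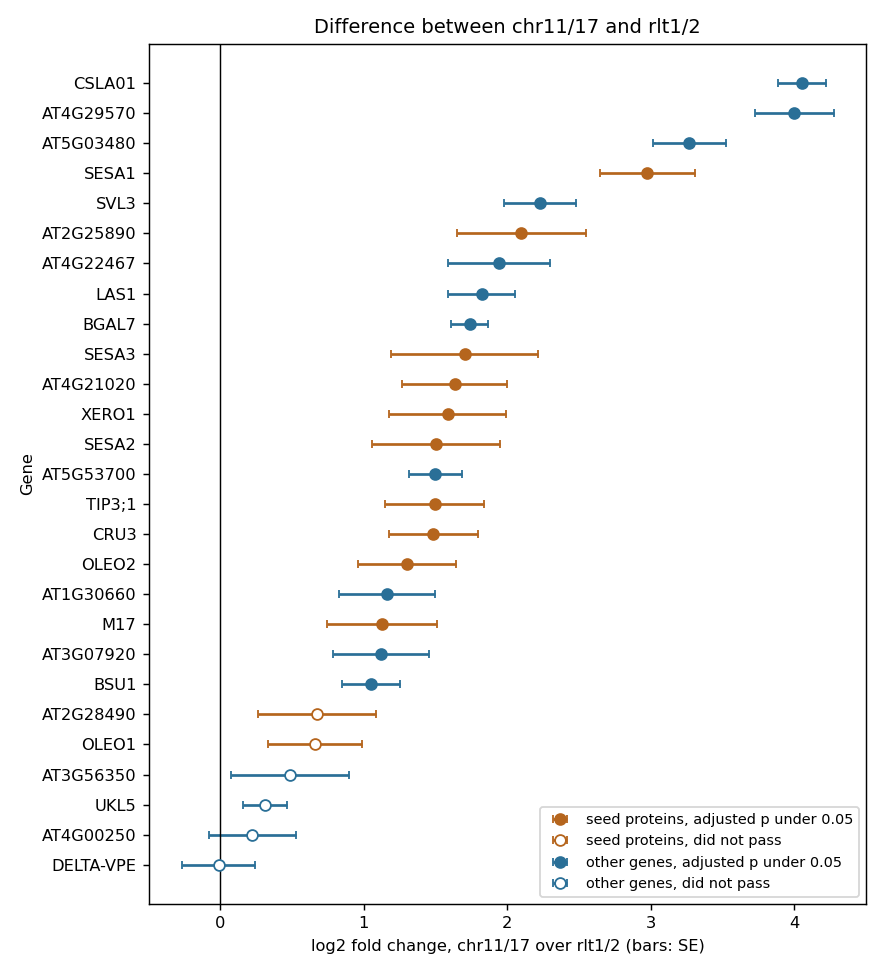
Points give the log2 fold change of the libraries labelled chr11/17 over rlt1/2 for the 27 genes tested, with bars of 1 SE, and filled points passed the edgeR test. CSLA01 and AT4G29570 lead at 4.05 and 4.0, and no filled point lies below 0.

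The seed proteins shared a further feature: they differed between replicates together. The choice set a floor for each of these libraries but did not use the ratio between replicates. The seed grouping was made after the values were seen. Genes that vary together in the same pair of libraries are not independent observations, so the counts below are a description. In the libraries labelled chr11/17 all 12 were higher in replicate 1 than in replicate 2, by 1.59 to 3.89 times with a median of 2.15. All 12 were thus at least 1.5 times higher in replicate 1, as were 4 of the other 16 genes and 211 (1.27%) of the 16607 genes at or over 1 FPKM in the 4 libraries. For the other 16 genes the same ratio had a median of 0.997 and ran between 0.504 and 1.81. In rlt1/2 replicate 1 was higher for 10 of the 12 seed proteins, with a median ratio of 1.34 and a range of 0.828 to 2.23, and it was at least 1.5 times higher for 3 of them and for 3 of the other 16 genes (1.09% of the 16607 genes). SESA2 and SESA3 were the seed proteins with the lower value in rlt1/2 replicate 1.

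Most seed genes outside the set were also higher in replicate 1. Of the genes in the seed list that were not among the 28, 7 were at or over 1 FPKM in both libraries labelled chr11/17, and 6 of them were higher in replicate 1, with a median ratio of 1.95. The largest was the cruciferin gene CRA1 (AT5G44120), at 131 and 63.9 FPKM in the libraries labelled chr11/17, 34.0 and 28.5 FPKM in rlt1/2, 0.39 and 0.25 FPKM in fha2 and 0.08 and 0.36 FPKM in Col. Its second Col library kept it out of the set. The exception was OLEO4 (AT3G27660), at 2.33 and 2.58 FPKM in the libraries labelled chr11/17, 3.69 and 2.83 FPKM in rlt1/2, 3.01 and 2.08 FPKM in fha2 and 3.94 and 3.48 FPKM in Col, which was on in every genotype.

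**Figure D4:**
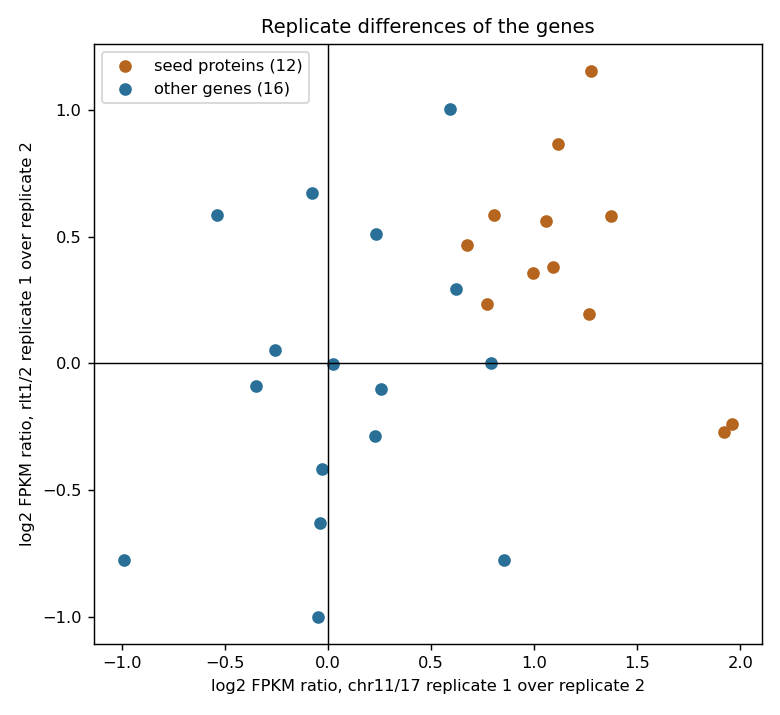
Each point is 1 of the 28 genes, placed by its log2 FPKM ratio of replicate 1 over replicate 2 in chr11/17 (x axis) and in rlt1/2 (y axis). All 12 seed proteins lie right of 0, while the other 16 genes scatter around 0 on the x axis.

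The list of 24 seed storage and oil body genes was the only 1 of 9 gene lists with members in the set, 7 in all. The lists were chosen with earlier results of these data known, so this is a description. The list of root and root hair genes held 0 genes silent in Col and could have no member. Of the 24 genes 16 were silent in Col, of which 8 were on in the libraries labelled chr11/17, 7 were on in rlt1/2 and 0 in fha2. A further 5 were on in both double mutants without being silent in Col. Of all genes silent in Col, 4.48% were on in the libraries labelled chr11/17, 0.911% in rlt1/2 and 0.0234% in fha2. Of the 17 genes of the list outside the set, 12 were tested in the libraries labelled chr11/17 over rlt1/2, and 8 were higher and none lower (edgeR, adjusted over all genes, or 10 and 0 at an unadjusted p under 0.05). Their median log2 fold change was 1.61, and 29.3% of all genes tested were higher and 30.1% lower. With the 7 genes of the set, 14 of 19 were higher.

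Levels of the regulators of the seed programme differed from gene to gene. LEC1 (AT1G21970), LEC2 (AT1G28300), FUS3 (AT3G26790) and ABI3 (AT3G24650) were at or under 0.59 FPKM in every library, and LEC1 had 0.05 FPKM in rlt1/2 replicate 1 and 0 elsewhere. ABI3 had 0.15 and 0.19 FPKM in the libraries labelled chr11/17, 0.04 and 0 FPKM in rlt1/2, 0.06 and 0 FPKM in fha2 and 0 and 0.05 FPKM in Col. WRI1 (AT3G54320), an activator of oil synthesis, had 15.2 and 13.8 FPKM in the libraries labelled chr11/17, 7.85 and 6.69 FPKM in rlt1/2, 5.89 and 5.85 FPKM in fha2 and 3.89 and 5.03 FPKM in Col. AGL15 (AT5G13790), a MADS-box gene of embryos, had 13.1 and 10.9 FPKM in the libraries labelled chr11/17, 6.05 and 5.83 FPKM in rlt1/2, 1.27 and 1.07 FPKM in fha2 and 1.03 and 1.60 FPKM in Col. Of the 10 regulators, 4 could be tested. By the edgeR test all 4 were higher in the libraries labelled chr11/17 than in rlt1/2, against 29.3% of all genes tested. ABI3, among these 4, had only 10 and 13 counts in the libraries labelled chr11/17 and 3 and 0 in rlt1/2. LEC1, LEC2, FUS3, NF-YB6 (AT5G47670), BBM (AT5G17430) and ABI4 (AT2G40220) had too few counts to test, so no direction is given for the 10 as a whole. Against Col, all 4 tested regulators were higher in the libraries labelled chr11/17 and 2 of the 4 in rlt1/2. Of all genes tested, 34.8% and 18.7% were higher in these comparisons. In fha2 over Col 1 of the 4 was higher and none lower, against 6.33% and 8.76% of all genes tested. That gene was ABI5 (AT2G36270), a transcription factor of abscisic acid signalling in seeds, at 1.18 and 1.4 FPKM in the libraries labelled chr11/17, 0.76 and 0.57 FPKM in rlt1/2, 0.43 and 0.6 FPKM in fha2 and 0.13 and 0.19 FPKM in Col. Its log2 fold change in fha2 over Col was 1.46 ± 0.45 (SE, edgeR adjusted p = 0.0469).

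By position, 10 of the 28 genes lay on chromosome 4, 8 on chromosome 3, 4 on chromosome 5 and 3 each on chromosomes 1 and 2. Chromosome 4 holds 15.2% of the listed genes, chromosome 3 19.7%, chromosome 5 23.2%, chromosome 1 26.3% and chromosome 2 15.6%. Apart from the row of 2S albumin genes, the closest pair was DELTA-VPE and SVL3, with 33 listed genes between them. The effective transcript length, taken from the ratio of count to FPKM, had a median of 1120.5 bases, against 1582 bases over the 16607 genes at or over 1 FPKM in the libraries labelled chr11/17 and rlt1/2. Another listed gene overlapped 7 of the 28, against 25.4% of all genes, and 8 had a count that was not whole in some library, against 29.2%.

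Genes lay close to each threshold on both sides. A level of 0.2 FPKM in Col corresponds to between 0.27 and 11.8 counts depending on the gene, and no Col library held more than 8 counts of any of the 28 genes. SESA2, with a higher Col value of 0.19 FPKM, stood just inside, and the floral organ gene SEP1 (AT5G15800) just outside, with 14.3 and 13.3 FPKM in the libraries labelled chr11/17, 12.1 and 11.8 FPKM in rlt1/2, 0.45 and 0.39 FPKM in fha2 and 0.13 and 0.20 FPKM in Col. AT1G54020 and DSI-1VOC (AT1G07645) followed outside at higher Col values of 0.21 and 0.22 FPKM, and OLEO2 and AT1G30660 inside, both at 0.16 FPKM. At the level of the double mutants, AT5G03480, AT1G30660 and AT4G22467 stood just inside with lowest values of 1.05, 1.06 and 1.11 FPKM, and AT3G28193, AT3G15280 and AT5G43590 just outside with 0.97, 0.93 and 0.92 FPKM. Membership depended on single libraries: 43 genes met the conditions without Col replicate 1, 60 without Col replicate 2 and 43 without rlt1/2 replicate 2. Of the 60 and of the 43 without Col replicate 1, 4 and 2 genes were on in fha2.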

How the data were processed

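Per the file headers, the authors deposited 1 table of expected counts (estimates, often not whole numbers) and expression values per gene and library, with genotype means, and 1 table of log2 fold changes, p-values and q-values against Col. The header does not name the expression unit. The deposited values were read as FPKM because value divided by count, times the library total, was constant over libraries (medians of 0.999 to 1.001 of the gene mean over 7213 genes above 300 reads in each). The submitters' processing notes list Bowtie2, RSEM and DESeq2 as tools and TAIR10 as the build. No label or header states whether strand was used. The authors' deposited log2 fold changes, p-values and q-values were not used.

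FPKM were used as deposited to choose and describe genes; they are scaled to all counted reads, while the TMM factors were 0.841 and 0.895 in Col and 1.02 to 1.09 in the mutants. Expected counts were rounded, filtered with filterByExpr (20866 of 25198 genes kept), TMM scaled and tested with edgeR 4.0.16 in R 4.3.3 (quasi-likelihood, 1 fit over 8 libraries, genotype as the only term, SE from the fold change and its F statistic, Benjamini-Hochberg adjusted p under 0.05). The script was tested on simulated data. Names, chromosomes and neighbours came from the RefSeq annotation of TAIR10.1, where 25198 of 25198 IDs matched. Since the build names differ, no coordinates, promoter sequences or motifs are given. The 28 genes, the 9 gene lists and the alternatives were chosen with earlier results of these data known. Genes were to be named where they had the highest levels, were on in fha2, stood in a list, had the largest or smallest called differences, lay near a threshold or were neighbours; the rest of the 28 are named too, outside that rule. Alternatives were RLE factors, total counts, other filters, DESeq2 1.42.0, limma-voom 3.58.1, a fit of both double mutants alone, a replicate block, each library left out, and other thresholds.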

Additional observations from a re-analysis of the deposited data

How the results depend on the processing

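The number of genes in the set depended on its thresholds. It was 13 with Col under 0.1 FPKM and 102 with Col under 0.5 FPKM, 76 with at least 0.5 FPKM and 12 with at least 2 FPKM in the double mutants, and 52 on genotype means, an alternative added after seeing the data. It lay between 29 and 60 without single libraries. With CPM in place of FPKM 25 genes met the conditions, 19 of them shared with the 28, and 26 of the 28 remained with FPKM divided by the TMM factor (also added after seeing the data). Leaving out overlapping genes left 21. The count on in fha2 stayed at 0 of 28 with at least 0.5 FPKM. No fha2 value of the 28 genes exceeded 0.98 FPKM. The settings of at least 2 FPKM, the mean, no overlapping genes and either fha2 library left out could therefore only give 0. In sets chosen otherwise, genes on in fha2 numbered 2 of 25 with CPM, 6 of 102 with Col under 0.5 FPKM and 1 of 52 on genotype means. For chr11/17 over rlt1/2 the number higher ran from 19 to 22 under other scalings, filters and tools, was 16 of 21 genes without overlapping genes and 16 to 22 without single libraries, with 0 lower in each, and the median log2 fold change ran from 1.1 to 1.89. Of the 21 calls 14 held in all 16 alternative fits. SESA2 and SESA3 lost theirs with DESeq2 (adjusted p = 0.107 and 0.181) and limma-voom (0.0649 and 0.0583), and the cause was not tested. With the replicate number as a block 22 were higher and 0 lower, with a median of 1.46. Deviations of same-numbered libraries correlated between -0.11 and 0.07 over genes. Such a value over all genes cannot show whether same-numbered libraries were grown or harvested together, which no label states. Counts of 0 to 8 in Col limit what can be called silent.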

Other observations

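Other listed genes were silent in Col and on in the libraries labelled chr11/17 without reaching 1 FPKM in rlt1/2. They include 3 terpene genes: DXPS1 (AT3G21500), of the plastid isoprenoid pathway, had 36.6 and 42.5 FPKM in the libraries labelled chr11/17, 0.68 and 0.26 FPKM in rlt1/2, 0.07 and 0.09 FPKM in fha2 and 0 in both Col libraries. CYP82G1 (AT3G25180), which makes volatile homoterpenes, had 8.19 and 4.30 FPKM in the libraries labelled chr11/17 and 0.02 and 0 FPKM in rlt1/2, and the terpene synthase gene TPS04 (AT1G61120) had 2.01 and 1.81 FPKM against 0.15 and 0.05 FPKM. The floral organ genes SEP2 (AT3G02310) and STK (AT4G09960) had 9.41 and 6.99 FPKM and 4.45 and 3.99 FPKM in the libraries labelled chr11/17, against at most 0.12 FPKM in rlt1/2. All 4 had at most 0.16 FPKM in fha2 and at most 0.05 FPKM in Col.

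The single gene silent in Col and on in fha2, AT5G22145, had 0 in both libraries labelled chr11/17, 0 and 1.15 FPKM in rlt1/2, 1.11 and 1.57 FPKM in fha2 and 0 and 0.14 FPKM in Col.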
